A study of Mus musculus with 4 samples.

Results

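The genes described here are 10 genes of the early skeletal muscle programme, read in brown fat of mice with and without a deletion of Sox4. They were taken by their symbols from the 55387 gene rows that each library lists, and all 10 were found. The group was chosen by role (lineage factors and developmental isoforms), and it was put forward and selected on the FPKM values of these same 4 libraries, in which several of its genes were already known to differ between the genotypes. They are the paired-box factors Pax3 and Pax7, the myogenic regulatory factors Myf5, Myod1, Myog and Myf6, the developmental myosin heavy chains Myh3 and Myh8, the cardiac and fetal actin Actc1 and the acetylcholine receptor subunit Chrna1. RNA was sequenced from interscapular brown adipose tissue (BAT) of 4 male mice aged 15 weeks, 2 per genotype, with 1 library per mouse. The Sox4-MKO mice were floxed for Sox4 and carried a Cre recombinase driven by Myf5, and the controls were Sox4f/f littermates that the sample labels call WT. No Cre is given for the controls, and all 4 mice carry the floxed Sox4 alleles. The labels give the cell type as adipocytes of brown adipose tissue, whereas RNA was made from the whole tissue. The Myf5 driver acts in the whole lineage that passes through Myf5 expression, which includes brown adipocytes and skeletal muscle, so a muscle cell left in a brown fat sample would be deleted as well.

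Brown adipocytes of the interscapular depot and the muscles beside it descend from somite cells that express Pax3, Pax7 and, for a time, Myf5. In the muscle branch Myf5 and Myod1 commit cells to myoblasts, Myog drives their differentiation, and Myf6 (also called MRF4) stays on in mature fibres. Pax7 marks satellite cells, the resident muscle stem cells. Newly formed fibres first use Myh3 (embryonic myosin), Myh8 (perinatal myosin) and Actc1, which later give way to adult myosins and to the actin Acta1, and in cardiac muscle Actc1 stays the main actin. Chrna1 encodes the alpha subunit of the receptor at the nerve-muscle synapse.

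Values are FPKM, fragment numbers corrected for transcript length and for the depth of a library, with 1 value per gene row and library from the authors. The libraries held an estimated 12100000 to 16200000 fragments. Values listed at exactly 0 can be failed estimates in such files and are given as listed. The deleted gene Sox4 stood at 1.98 and 1.06 FPKM in control mice 1 and 2, against 0.98 and 3.06 FPKM in Sox4-MKO mice 1 and 2 (log2 fold change 0.20, standard error 0.43, adjusted p = 0.843 by limma). Its mRNA therefore goes against the label in Sox4-MKO mouse 2, and in Sox4-MKO mouse 1 it lay close to that of control mouse 2. The directions below are those of the libraries labelled Sox4-MKO, called MKO-labelled libraries (MKO 1 and MKO 2) from here on. Brown fat markers were high in all libraries, with Ucp1, the uncoupling protein of brown fat, at 1935 and 1814 FPKM in the controls and at 733 and 1105 FPKM in the MKO-labelled libraries, and Cox8b at 3317 and 3181 against 1670 and 2027 FPKM.

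RefSeq (GRCm38.p6) gave a promoter for 7 of the 10 genes. In the 250 bases before each start, 3 motifs of muscle gene regulation were searched on both strands: the E-box CANNTG, which the myogenic regulatory factors bind, the MEF2 motif and the CArG box of serum response factor. All 3 read the same on both strands and their matches did not overlap here. The promoters of Myog, Chrna1, Actc1 and Myh8 are shown because a match lies within the stretch printed. Each stretch runs 5′ to 3′ on the gene's strand from position -150 to -21 before the start, with matches in capitals. They lie at chr1:134289854-134289983 (plus strand), chr2:73580359-73580488 (minus), chr2:114052896-114053025 (minus) and chr11:67276974-67277103 (plus). For Actc1 the RefSeq start, at 114052875, differs from the GENCODE M21 annotation, in which the gene reaches 114053548. The Actc1 stretch thus lies inside the GENCODE range of the gene, though in none of its exons.
Myog: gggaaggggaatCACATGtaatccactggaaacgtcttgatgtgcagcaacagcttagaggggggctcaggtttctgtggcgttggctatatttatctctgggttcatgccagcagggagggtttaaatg
Chrna1: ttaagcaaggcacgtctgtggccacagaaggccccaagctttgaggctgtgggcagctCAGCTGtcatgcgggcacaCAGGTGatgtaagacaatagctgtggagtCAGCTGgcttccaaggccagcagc
Actc1: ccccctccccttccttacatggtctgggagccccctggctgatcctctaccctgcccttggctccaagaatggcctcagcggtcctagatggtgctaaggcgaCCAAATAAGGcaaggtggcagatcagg
Myh8: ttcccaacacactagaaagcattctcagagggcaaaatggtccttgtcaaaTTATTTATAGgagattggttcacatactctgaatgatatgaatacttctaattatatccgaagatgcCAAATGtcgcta
Chrna1 held 3 E-boxes in its 250 bases and Myog 2, of which 1 lies outside the stretch shown, and 66.2% of all 32851 promoters in the table hold at least 1. The match in Actc1 is a CArG box (1.47% of all promoters). Myh8 held a MEF2 motif (2.92% of all promoters) and 1 E-box. Myh3 held 1 E-box, and none of these letters was found in the windows of Myf5 and Pax7.

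All 10 genes were low in Sox4f/f brown fat and most were higher in the MKO-labelled libraries. No gene passed 1 FPKM in either Sox4f/f library, whereas 5 did so in each MKO-labelled library. In 9 of the 10 genes both MKO-labelled libraries lay above both Sox4f/f libraries, the exception being Pax3. Among the 22285 genes above 0 in any library, 19.7% lay higher in this way and 21.3% lower, and among the 12877 genes that entered the test described below these shares were 21.7% and 29.6%. Since the choice of the group used this comparison, its differences are given as a description, with no test. In bulk tissue, fewer or more cells of a type and less or more RNA per cell cannot be told apart.

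**Figure D1:**
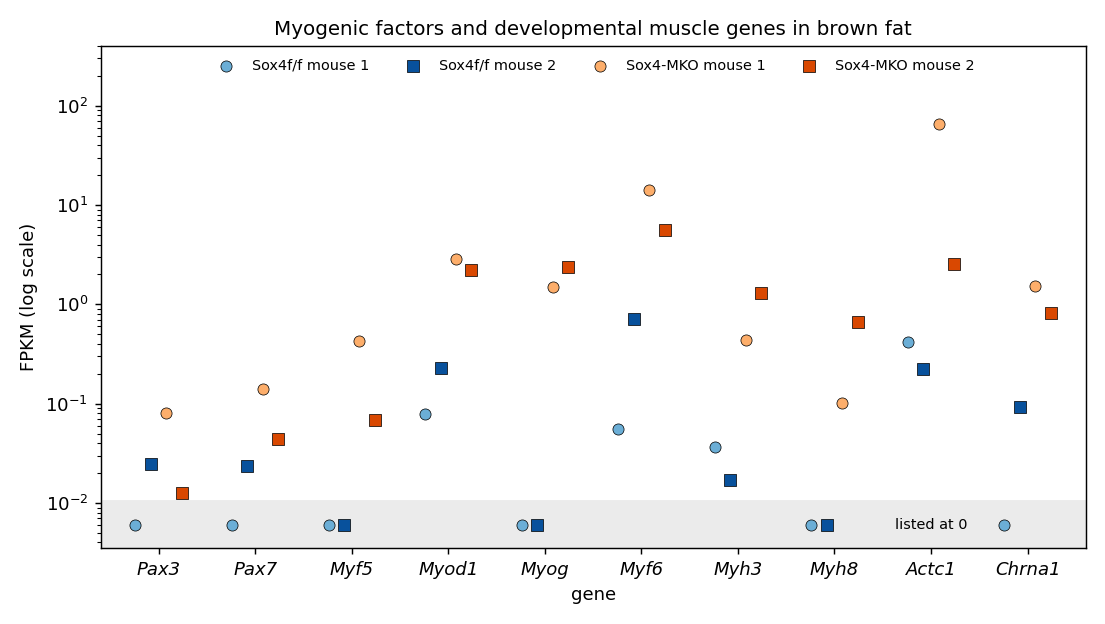
FPKM (log scale) of the 10 genes in each of the 4 libraries, blue for Sox4f/f and orange for Sox4-MKO, with circles for mouse 1 and squares for mouse 2. Points in the grey band are listed at 0, and in 9 genes both orange points lie above both blue points, with Pax3 as the exception.

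The upstream factors were at the limit of detection. Pax3, on chromosome 1 from 78101267 to 78197134 (GRCm38, GENCODE M21), was listed at 0 and 0.025 FPKM in the controls and at 0.081 and 0.013 FPKM in MKO 1 and MKO 2. These values stand for an estimated 0, 1, 4 and 1 fragments, and the genotypes overlapped. Pax7, on chromosome 4 from 139737062 to 139833528, was listed at 0 and 0.023 FPKM against 0.14 and 0.044 FPKM, or an estimated 0, 2, 10 and 4 fragments. Pax7 lay higher in both MKO-labelled libraries, but so few fragments carry no firm size of difference.

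Myf5, whose gene drives the Cre, was listed at 0 in both Sox4f/f libraries and at 0.43 and 0.068 FPKM in MKO 1 and MKO 2, from an estimated 11 and 2 fragments. No fold is given against values listed at 0. Myf5 lies on chromosome 10 from 107482908 to 107486134, and Myf6 lies 6718 bases away from 107492853 to 107494737, both on the minus strand. Myf6 was the highest of the 4 factors in 3 of the libraries. It was listed at 0.056 and 0.71 FPKM in the controls and at 14.1 and 5.55 FPKM in MKO 1 and MKO 2, so the genotypes did not overlap. The mean was 0.38 ± 0.46 FPKM in the controls and 9.84 ± 6.07 FPKM in the MKO-labelled libraries (SD, n = 2 each), and the log2 difference of log2(FPKM + 1) was 2.89 with a standard error of 0.49.
None of the 4 neighbours of the pair on chromosome 10 lay higher in both MKO-labelled libraries than in both Sox4f/f libraries. Lin7a, a synaptic scaffold gene, had 1.11 and 0.84 FPKM in the controls and 0.60 and 0.72 FPKM in the MKO-labelled libraries, below both controls. Ptprq was listed at 0 in all libraries but MKO 1 (0.021 FPKM), and Otogl at 0.053 and 0.026 against 0.0083 and 0 FPKM. Ptprq and Otogl lie near the limit of detection, so they can show neither a change nor its absence. Acss3, an acyl-CoA synthetase gene, had 22.9 and 21.1 FPKM against 22.5 and 39.1 FPKM (log2 fold change 0.42, standard error 0.28, adjusted p = 0.500 by limma). Of these 4 neighbours, only Acss3 passed the filter for the test.

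Myod1, on chromosome 7 from 46376474 to 46379099, was listed at 0.079 and 0.23 FPKM in the controls and at 2.87 and 2.22 FPKM in MKO 1 and MKO 2. Of the 10 genes it was the most even between the MKO-labelled libraries, and its mean of 2.54 ± 0.46 FPKM was 16.5 times the 0.15 ± 0.11 FPKM of Sox4f/f (SD, n = 2 each). The control values of Myod1 rest on an estimated 2 and 5 fragments, so the size of this fold is not firm. Myog, on chromosome 1 from 134289989 to 134292548, was listed at 0 in both Sox4f/f libraries and at 1.49 and 2.37 FPKM in the others, from an estimated 28 and 58 fragments. Unlike Myod1 and Myf6, Myog was listed higher in MKO 2 than in MKO 1. The make-up of the 4 regulatory factors differed between these mice. Myf6 made up 74.7% of their summed FPKM in MKO 1 and 54.4% in MKO 2, and Myog 7.87% and 23.2%. In Sox4f/f mouse 2, Myf6 made up 75.6% and Myod1 24.4% of a sum of only 0.94 FPKM, and in Sox4f/f mouse 1 the sum was 0.14 FPKM.

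The developmental myosins lie in the myosin heavy chain cluster on chromosome 11, Myh3 from 67078300 to 67102291 and Myh8 from 67277124 to 67308634, with Myh1, Myh2 and Myh4 between them. Myh3 was listed at 0.036 and 0.017 FPKM in the controls and at 0.43 and 1.31 FPKM in MKO 1 and MKO 2, from an estimated 3, 1, 33 and 129 fragments. Myh8 was listed at 0 in both Sox4f/f libraries and at 0.10 and 0.66 FPKM in the others, from an estimated 8 and 66 fragments. Both were highest in MKO 2. Of the windows of 50 bases in the longest coding transcript, 21.4% of those of Myh8 and 4.81% of those of Myh3 also occur in transcripts of other genes, Myh2 and Myh13 sharing most, so these values could hold fragments of other myosins. Myh2, an adult fast myosin, was lower in MKO 2 (74.7 FPKM) than in MKO 1 (100.5 FPKM), and its part in these values was not tested. The developmental pair was also read as a share of the summed FPKM of Myh1, Myh2, Myh3, Myh4, Myh7 and Myh8. It made up 0.16% and 0.020% in the controls, 0.029% in MKO 1 and 0.77% in MKO 2. That sum was itself 22.6 and 83.0 FPKM in the controls, 1829 FPKM in MKO 1 and 256 FPKM in MKO 2. Myh2 made up 5.49% of it in MKO 1 and 29.2% in MKO 2.

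Actc1, on chromosome 2 from 114047282 to 114053548, showed the opposite order. It was listed at 0.41 and 0.22 FPKM in the controls, at 65.0 FPKM in MKO 1 and at 2.57 FPKM in MKO 2. The control values of Actc1 rest on an estimated 8 and 4 fragments. The means were 0.32 ± 0.14 and 33.8 ± 44.2 FPKM (SD, n = 2 each), so the size of the difference rests on a single library, and the log2 difference of 3.55 (standard error 1.40) was 1.44 without MKO 1 and 5.65 without MKO 2. None of the windows of 50 bases of Actc1 occurs in a transcript of another gene, Acta1 included. Relative to Acta1, the adult skeletal actin, Actc1 stood at 0.69% and 0.098% in the controls and at 1.44% and 0.29% in MKO 1 and MKO 2. Chrna1, also on chromosome 2, from 73563215 to 73580338, was listed at 0 and 0.092 FPKM in the controls and at 1.52 and 0.81 FPKM in the others, from an estimated 0, 5, 84 and 58 fragments.

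By their mean in the MKO-labelled libraries, the genes ranked in the order Actc1, Myf6, Myod1, Myog, Chrna1, Myh3, Myh8, Myf5, Pax7 and Pax3. In 8 of the 9 neighbouring pairs the ranges of both mice overlapped, and only Myf6 and Myod1 stood apart. The test across genes took those whose mean FPKM in either genotype exceeded 1, and 5 of the 10 genes passed (Myod1, Myog, Myf6, Actc1 and Chrna1). All 5 passed through the MKO-labelled libraries alone, so that they had to differ, and no count over them is drawn. Over the 4 libraries, whose values share each library's depth and tissue content, between 98 and 212 of 12872 other tested genes followed each of these 5 with a Pearson r above 0.99, a measure that says little with 4 points. The closest were Olfml3, Ugt1a6b and Mmp9 for Myod1, Ptprc, Tada2a and Ly6e for Myog, and C5ar1, Mterf1b and Actn2 for Myf6. For Actc1 they were Pdzrn3, Ube3c and Tbc1d2b, and for Chrna1 Dusp13, Adprhl1 and Col5a2. Of the 38 fibre markers described next 4 were among the 50 genes most like Myf6 and 0 among those most like the other 4 genes.

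Most markers of mature muscle were also higher in both MKO-labelled libraries. Of 38 markers of skeletal muscle fibres, all were detected in all libraries, and 37 lay higher in both MKO-labelled libraries than in both Sox4f/f libraries, the exception being Myh4. Their summed FPKM was 432 and 1449 in Sox4f/f mice 1 and 2, and 26139 and 5309 in MKO 1 and MKO 2. Acta1 stood at 59.9, 225.8, 4512 and 898 FPKM in that order, and the troponin gene Tnnt3 at 30.3, 119, 1961 and 375 FPKM. Cardiac markers were near 0. Myl7, Nppa, Nppb and Mybpc3 were listed at 0 in all libraries, Tnni3 was between 0.096 and 0.75 FPKM, and Myh6 was at most 0.66 FPKM. Of 8 smooth muscle and pericyte markers 1 lay higher without overlap, Des, which skeletal muscle also uses, at 29.0 and 36.8 against 231 and 78.8 FPKM, a smaller share than the 19.7% of all genes. The most abundant of the 8, the pericyte gene Rgs5, had 121 and 141 FPKM against 88.2 and 142 FPKM. Of 10 brown adipocyte markers, 7 lay lower in both MKO-labelled libraries, against 29.6% of all tested genes, and the median difference was -0.66 on the log2 scale. The part of fibre RNA in the differences of the 10 genes was not tested, and their levels relative to it are given next.

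Divided by the summed FPKM of the fibre markers, 4 of the 10 genes lay higher in both MKO-labelled libraries, against 9 as listed and 2.11% of the genes above 0 in any library on this scale. Of the 4, Myf5, Myog and Myh8 are listed at 0 in both controls and stay at 0 whatever they are divided by, so only Myf6 could have changed. Myod1 stood at 0.18 and 0.16 FPKM per 1000 FPKM of fibre markers in the controls, at 0.11 in MKO 1 and at 0.42 in MKO 2. Myf6 stood at 0.13, 0.49, 0.54 and 1.05 in the same order, and Sox4f/f mouse 2 was close to MKO 1. For Myog the ratio was 0.057 in MKO 1 and 0.45 in MKO 2. At the ratio of MKO 1, 0.49 and 1.49 fragments of Myog would be expected in Sox4f/f mice 1 and 2. At the ratio of MKO 2, 3.87 and 11.7 fragments would be expected. Both controls were listed at 0, and which ratio applies there was not tested. For Myh8 these expected numbers were 0.14 and 0.42 at the ratio of MKO 1, and 4.41 and 13.3 at that of MKO 2. For Myf5, between 0.155 and 0.595 fragments would be expected at either ratio.

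**Figure D2:**
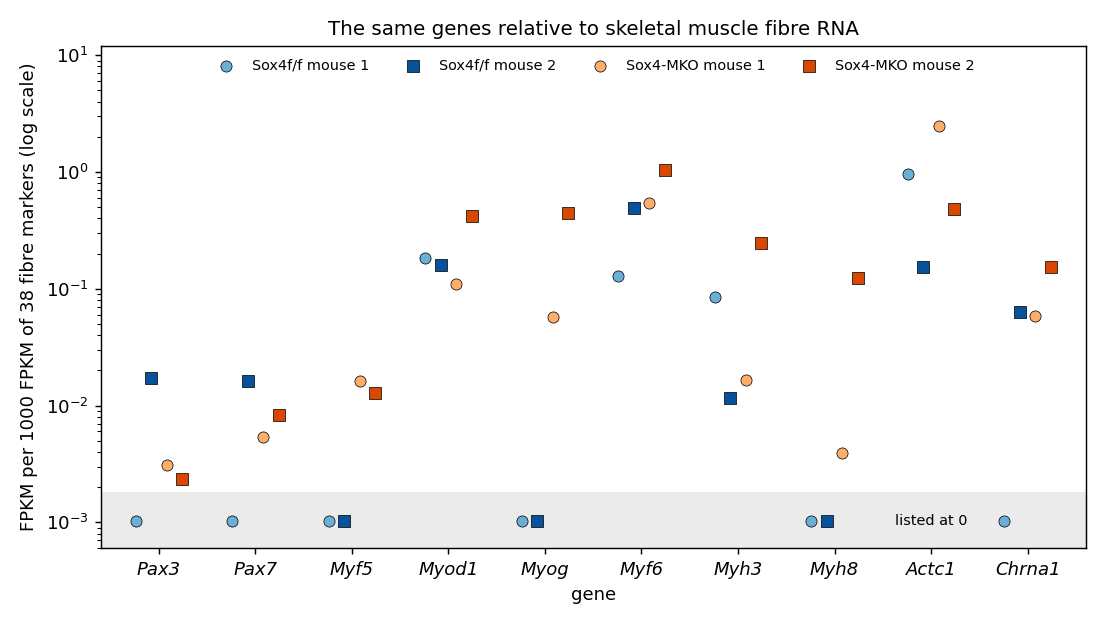
FPKM of the same 10 genes per 1000 summed FPKM of 38 fibre markers (log scale), with colours and shapes for the 4 libraries as in the plot of FPKM. MKO 1 lies below both Sox4f/f points for Myod1 and between them for Pax3, Pax7, Myh3 and Chrna1, whereas MKO 2 lies highest for Myod1, Myog, Myf6, Myh3, Myh8 and Chrna1.

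The MKO-labelled libraries differed from each other in which muscle genes were high. Each of the 38 fibre markers was higher in MKO 1 than in MKO 2, by 1.11 times (Mb) to 22.4 times (Mybpc2) with a median of 4.71 times. Among the 10 genes, 3 had a ratio below that of every fibre marker, namely Myh8 (0.15), Myh3 (0.33, 95% interval 0.22 to 0.49) and Myog (0.63, 0.38 to 1.00). In these genes MKO 2 was the higher library, although it held less fibre RNA, and the interval of Myog reaches 1. Such ratios were common, since 51.8% of the 17724 genes above 0 in both MKO-labelled libraries also lay below every fibre marker, and 0.135% lay above. Another 6 had ratios within the range of the fibre markers, from 1.29 for Myod1 (0.91 to 1.84) and 1.87 for Chrna1 (1.33 to 2.67) to 6.41 for Pax3. The ratio of Actc1 was above that of every fibre marker, at 25.3, with an interval of 19.6 to 33.2 that reaches below the 22.4 of Mybpc2. The intervals are exact Clopper-Pearson intervals from estimated fragments and cover counting error only. These ratios compare 2 mice and not the genotypes.

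**Figure D3:**
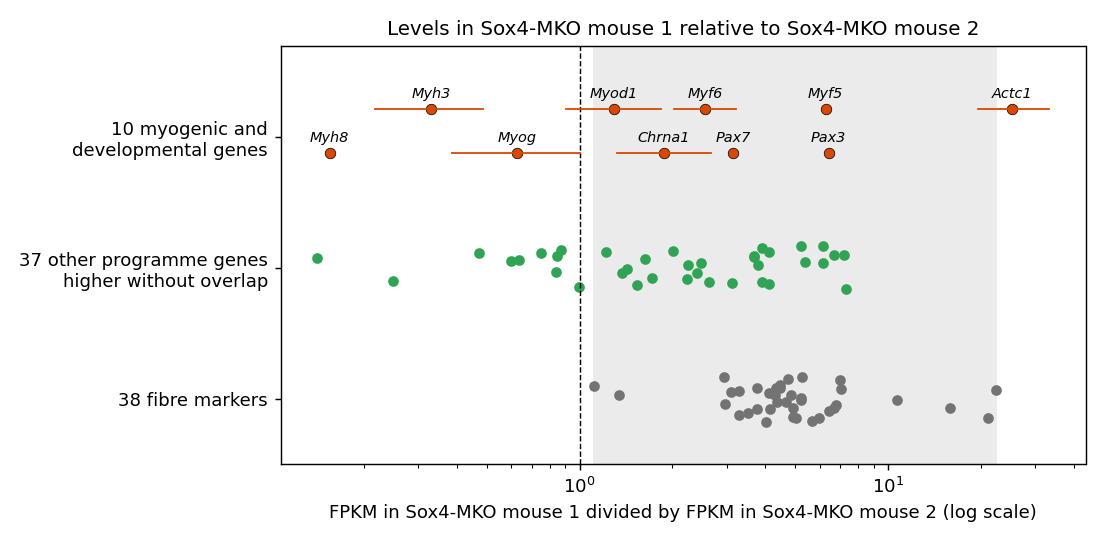
FPKM in MKO 1 divided by FPKM in MKO 2 (log scale) for the 10 genes with 95% counting intervals where both libraries held at least 10 estimated fragments, for 37 other genes of the programme and for 38 fibre markers, whose range is shaded. Myh8, Myh3 and Myog lie left of the shaded range and Actc1 lies right of it.

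The other genes of the myogenic programme, as counted here, were 81, of which 4 are the neighbours of Myf5 on chromosome 10. The rest form the lists given below. Of the 81 genes, 37 lay higher in both MKO-labelled libraries and 15 lower, with 0 and 2 of the neighbours among them. Of all genes above 0 in any library these shares were 19.7% and 21.3%. Among those 37, 10 had a ratio of MKO 1 over MKO 2 below that of every fibre marker, a smaller share than the 47.9% of all 4382 genes that lay higher in both MKO-labelled libraries. Those 37 include genes of the list of other developmental contractile genes, and these went both ways. Ankrd1 (0.14), Tnnt2 (0.47) and Myl4 (0.60) were higher in MKO 2. Csrp3 (2.25), Myl6b (2.63) and Mybph (7.31) were higher in MKO 1, at ratios within the range of the fibre markers.

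Of the 81 genes, 57 entered the test, with Acss3 as the only neighbour of Myf5 among them. By limma, 11 of the 57 were higher and 5 lower in the MKO-labelled libraries at an unadjusted p under 0.05, against 7.95% higher and 8.28% lower of all 12877 genes tested. Of all calls 51% were lower, and 64.9% were lower after scaling to a common median and 36% with a common sum without mitochondrially encoded genes and Ucp1. No gene had a Benjamini-Hochberg adjusted p under 0.05, in the 57 or in all genes (2090 had an unadjusted p under 0.05), and the smallest adjusted p was 0.191. The median log2 fold change was 0.16 over the 57 and -0.05 over all genes tested. The count of 11 was 26 without MKO 2, 12 without MKO 1, 4 without Sox4f/f mouse 1 and 6 without Sox4f/f mouse 2, and that of 5 lower genes was 3 without Sox4f/f mouse 2 or either mouse labelled Sox4-MKO.
Of 20 premyogenic factors, of which Tcf21 was listed at 0 throughout, 13 were tested, 3 were higher at that p, 1 was lower and 9 did not pass. Six4, a homeobox factor, had 0.41 and 0.48 FPKM in the controls against 2.73 and 1.22 FPKM (log2 fold change 0.99, adjusted p = 0.271 by limma). Tcf15, a somite factor, was lower, at 19.5 and 29.3 against 13.1 and 13.3 FPKM.
Of 10 satellite cell genes, 5 were tested. Vcam1 was higher (log2 fold change 0.59) and the Notch target Heyl lower (-0.56), and both are also used by vessel cells. The most abundant, Sdc4, had 95.4 and 44.5 FPKM against 33.3 and 51.1 FPKM and did not pass. Cdh15, the muscle cadherin, did not enter the test, and lay at 0 and 0.13 against 0.95 and 0.38 FPKM.

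The E proteins, with which the myogenic regulatory factors pair to bind the E-box, did not pass the test. Tcf3 had a log2 fold change of -0.25, Tcf4 of -0.02 and Tcf12 of -0.02. Of the Id proteins, which sequester E proteins, Id1 was lower, at 109 and 103 FPKM in the controls and 58.9 and 56.8 FPKM in the MKO-labelled libraries (log2 fold change -0.86, standard error 0.11, adjusted p = 0.191 by limma). Id2 and Id3 had log2 fold changes of -0.46 and -0.87 and did not pass. Mef2c, a cofactor of the regulatory factors, was higher, at 5.02 and 6.77 against 33.3 and 16.6 FPKM (log2 fold change 1.84, adjusted p = 0.205). So were Smyd1, a methyltransferase of sarcomere assembly (2.72), and Rbm24, a muscle splicing factor (2.41). In all, 16 of these 18 genes were tested, with 3 higher, 1 lower and 12 that did not pass.

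Of 10 genes linked to myoblast fusion, 8 were tested and 1 passed, Itgb1bp2, a costamere gene, at 0.34 and 2.33 against 56.0 and 15.3 FPKM (log2 fold change 3.85, adjusted p = 0.201 by limma). The fusion genes proper were low. Mymk was listed at 0 in both Sox4f/f libraries and at 0.068 and 0.27 FPKM in the others, and Mymx at 1.68 FPKM in MKO 2 and at 0 in the other 3 libraries.
Of 7 other developmental contractile genes 5 were tested. The Z-disc gene Csrp3 (1.22 and 7.15 against 87.4 and 38.8 FPKM) and the light chain Myl6b (3.42 and 4.19 against 33.3 and 12.7 FPKM) were higher, and Nes, which vessel and nerve cells also express, was lower (13.5 and 17.3 against 8.92 and 7.82 FPKM). Tnnt2, the troponin of heart and embryonic muscle, did not enter the test and was listed at 0 in both Sox4f/f libraries and at 0.51 and 1.08 FPKM in the others.
Of 12 genes of the receptor and the synapse, 9 were tested, with Lrp4, a muscle agrin receptor, higher (log2 fold change 0.79) and Agrn, which vessels and nerves also make, lower (-0.66). Utrn had between 18.6 and 19.6 FPKM in the 4 libraries. Chrne, the only one of the next pair that was tested, had a log2 fold change of 0.95 (adjusted p = 0.516 by limma). The subunits that replace each other in development were read side by side. The fetal subunit Chrng stood at 0 and 0.029 FPKM in the controls and at 0.20 and 0.26 FPKM in MKO 1 and MKO 2. The adult subunit Chrne stood at 0 and 0.35 against 3.27 and 0.18 FPKM. Chrng was thus 0.061 times Chrne in MKO 1, 0.083 times in Sox4f/f mouse 2 and 1.46 times in MKO 2. Apart from Chrne in MKO 1 these values lie near the limit of detection, and their fragments were not estimated. The ratios therefore carry no firm size.

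**Figure D4:**
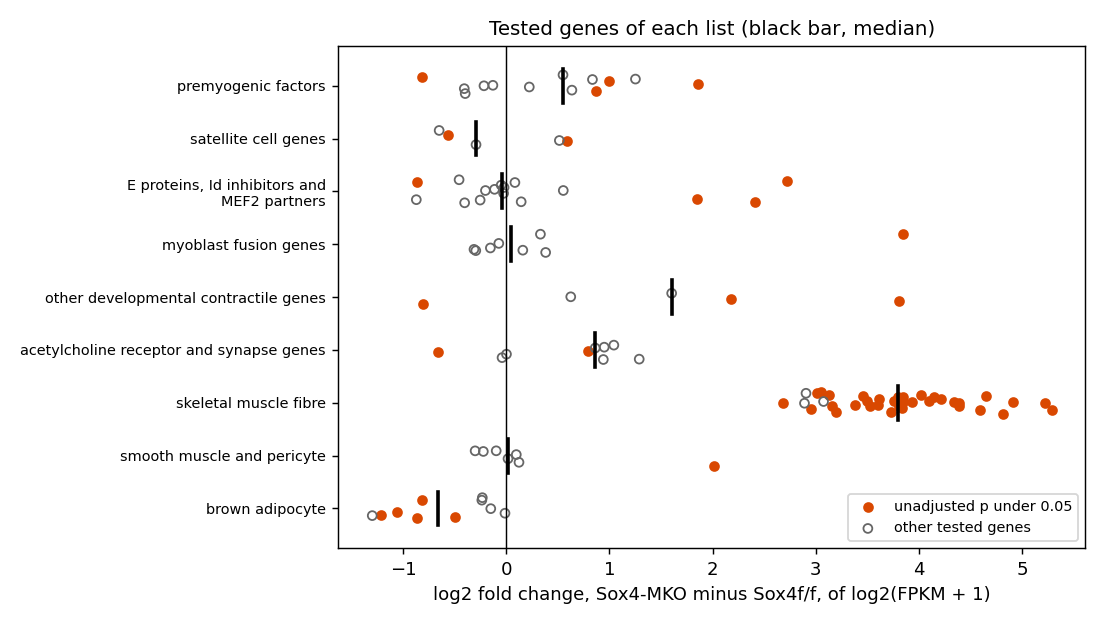
log2 fold change (Sox4-MKO minus Sox4f/f, on log2(FPKM + 1)) of the tested genes in 6 lists of the myogenic programme and 3 lists of cell type markers, filled where the unadjusted p was under 0.05 by limma, with the median as a black bar. The 38 fibre markers lie between 2.68 and 5.28, above the medians of all 6 programme lists, of which the highest is 1.60.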

How the data were processed

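The authors deposited FPKM values per library in 55387 rows with 55287 different gene symbols, 66 of them repeated, and each row was fitted by itself. The submitters' processing notes name Cufflinks 2.1.1, Cuffdiff and mm10, and the aligner and annotation are not given in the sources used here. Samples were grouped by their titles. The genes and lists described were chosen with earlier results of these data known. Genes whose mean FPKM in either genotype exceeded 1, the filter of the study's methods, were tested with limma 3.58.1 in R 4.3.3. The fit used log2(FPKM + 1), a single genotype term, a trended prior and two-sided p-values. Since 1 is added, a log2 fold change is too small for a low gene. The study's general statistics section names tests for comparing groups but none for the sequencing in particular. FPKM are not counts, so no count test was made. With 2 mice per genotype an exact permutation test cannot give a p below 0.333. In simulated data for 12877 genes with 200 changed by 2 on the log2 scale, the fit called 95.5% of the changed and 5.81% of the unchanged genes at an unadjusted p under 0.05, and 53% of the changed genes after adjustment.

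Fragments were estimated from the lowest values of 6742 single-transcript genes whose transcript reaches 1500 nt, as FPKM × kb per fragment. They are approximate, since the lengths are those of GENCODE M21. Coordinates were matched by symbol to that annotation of GRCm38 (mm10), and promoter sequences are those of RefSeq. P-values rest on the spread between 2 mice per genotype, which the trended prior draws towards that of genes of similar level. Windows of 50 bases were compared between GENCODE transcripts. Named genes were the 10 genes, Sox4, the Myf5 neighbours, in each other list up to 4 with an unadjusted p under 0.05 and no overlap and the most abundant, for each of the 5 tested among the 10 the 3 most like it, and in each marker list the 2 most abundant and those listed at 0 throughout. Cdh15, Mymk, Mymx, Tnnt2, Myl4, Ankrd1, Mybph, Chrng, Chrne, Myh2, Mb, Mybpc2, the E proteins, Id2 and Id3 were named with their values known. Some genes that the rule names are not reported here. matplotlib 3.10.9 drew the figures.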

Additional observations from a re-analysis of the deposited data

How the results depend on the processing

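With 2 mice per genotype no value has more than 1 other mouse behind it. Leaving out each library in turn, the genes at an unadjusted p under 0.05 were between 404 (without Sox4f/f mouse 1) and 1012 lower, and between 445 (without Sox4f/f mouse 1) and 1559 higher (without Sox4-MKO mouse 2), against 1066 and 1024 with all libraries. Among the other genes of the myogenic programme they were between 3 and 5 lower and between 4 and 26 higher, against 5 and 11. Genes with an adjusted p under 0.05 were between 0 and 5 when a library was left out. The lone library of a genotype was assumed to vary like the other genotype. Scaling to a common median gave 1682 lower genes, 64.9% of the calls against 51% as deposited, and a common sum without mitochondrially encoded genes and Ucp1 36%. Same-numbered libraries did not deviate together (correlation -0.012 over 12877 genes). This correlation alone cannot tell whether they also share a litter or a preparation. With a replicate block, 938 genes were lower and 970 higher, and 6 and 10 of the programme. The count of 9 of the 10 genes above both Sox4f/f libraries was 9 under each of the 3 scalings and 4 relative to the fibre markers, an alternative chosen after the data were seen. Leaving out a library, also added then, can only keep or raise that count (9 to 10) and says nothing about its stability. The cause of these changes was not tested. The log2 differences of the 5 tested genes moved by more than the spread between replicates in 10 of 62 values under the alternatives, in 8 of them with a pseudocount of 0.1 or 0.01, which raised Myog from 1.53 to 4.31 and 7.56. The filter on the average over all 4 libraries kept fewer of these genes, since Myog and Chrna1 were under 1 there.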
